A study of Mus musculus with 12 samples.

Results

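Acute phase proteins are secreted or membrane proteins whose synthesis changes within hours of tissue injury or infection. The RNAs of 9 of them that mouse tissue outside the liver can make were followed here in the heart: Saa3, Lcn2, Hp, Ptx3, Cp, Serpina3n, Lrg1, Lbp and Steap4. The 9 genes were chosen by name, with earlier results of these data known, from the 55487 genes of the deposited expression table. Each name matched 1 row. The study measured heart RNA in wild-type mice (genotype WT) in a 2-by-2 design of surgery and drinking water, with 3 libraries in each of 4 groups. The I/R+B12 group had 45 min of ischemia and 24 h of reperfusion after 7 days of vitamin B12 in the drinking water, at 50 mg/L and about 4 mL per day. The I/R group had the same ischemia and reperfusion on normal water. The Sham+B12 group had a sham operation after the same B12 water, and the Sham group a sham operation on normal water. The labels do not say which part of the heart was taken, nor whether each library came from a separate animal, so the p-values below measure only the spread between these libraries.

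In the classical acute phase response, interleukin-6 and related cytokines signal through STAT3, and interleukin-1 and tumour necrosis factor through NF-kB and C/EBP factors, to raise transcription of such genes in hepatocytes. Several members are also made locally. Saa3 is the serum amyloid A gene that mice express mostly outside the liver, and lipocalin 2, haptoglobin, pentraxin 3 and Lrg1 are also known as products of neutrophils. The proteins bind lipid (Saa3, Lbp), iron-carrying siderophores (Lcn2), haemoglobin (Hp), microbial surfaces (Ptx3) or copper (Cp), inhibit proteases (Serpina3n), modify TGF-beta signalling (Lrg1) or reduce iron and copper at membranes (Steap4).

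Sequencing depth was estimated at 24.5 to 28.5 M fragments per library from the spacing of low values, and 11490 to 12612 genes reached 1 FPKM (fragments for each kilobase of a gene's transcript, relative to the size of the library). The 10 ventricular cardiomyocyte markers were all at 1 FPKM or more in every library, which fits the labelled tissue. Before any comparison, 2 libraries stood apart from their labels in the members themselves. The library labelled I/R 3 had low levels of Saa3, Lcn2, Ptx3, Serpina3n, Lrg1 and Lbp, within or below the range of the Sham+B12, Sham 1 and Sham 2 libraries. The library labelled Sham 3 had high levels of the same genes. It also had 3157 FPKM of the natriuretic peptide gene Nppa, against 178 to 707 FPKM in the other 11 libraries. Labels were kept as given, and values with and without these 2 libraries are printed. The members' own levels singled out these 2 libraries, so fits without them are no independent test of the members. In bulk RNA, fewer cells of a type and less RNA per cell cannot be told apart.

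The 4 members called higher in I/R+B12 than in Sham+B12 hearts, described below, were Saa3, Lcn2, Ptx3 and Steap4, and the bases in front of their RefSeq start sites are given here because the pathways above act on such promoters. Each line holds the 250 bases before the start, 5′ to 3′ on the gene's strand, from RefSeq on GRCm38.p6. Capitals mark matches to 3 motifs searched on both strands: TTNNGNAA for C/EBP, TTCNNNGAA for STAT and GGGNNNNNCC for NF-kB. The regions are chr7:46715677-46715926 on the minus strand for Saa3, chr2:32387740-32387989 on the minus strand for Lcn2, chr3:66219637-66219886 on the plus strand for Ptx3 and chr5:7960222-7960471 on the plus strand for Steap4.
Saa3: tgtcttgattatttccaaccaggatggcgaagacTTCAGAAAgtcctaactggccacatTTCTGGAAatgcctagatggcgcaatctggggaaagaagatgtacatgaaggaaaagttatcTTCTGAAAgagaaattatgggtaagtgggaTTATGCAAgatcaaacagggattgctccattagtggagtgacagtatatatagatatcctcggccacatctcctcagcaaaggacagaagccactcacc
Lcn2: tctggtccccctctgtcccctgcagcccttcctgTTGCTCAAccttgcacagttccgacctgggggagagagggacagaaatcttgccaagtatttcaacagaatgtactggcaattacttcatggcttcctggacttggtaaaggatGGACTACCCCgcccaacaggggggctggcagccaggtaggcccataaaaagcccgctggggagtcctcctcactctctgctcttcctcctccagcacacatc
Ptx3: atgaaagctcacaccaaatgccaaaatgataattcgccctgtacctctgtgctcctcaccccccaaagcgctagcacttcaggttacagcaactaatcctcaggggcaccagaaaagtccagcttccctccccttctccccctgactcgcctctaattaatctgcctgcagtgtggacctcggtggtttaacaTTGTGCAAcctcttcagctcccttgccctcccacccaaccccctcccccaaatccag
Steap4: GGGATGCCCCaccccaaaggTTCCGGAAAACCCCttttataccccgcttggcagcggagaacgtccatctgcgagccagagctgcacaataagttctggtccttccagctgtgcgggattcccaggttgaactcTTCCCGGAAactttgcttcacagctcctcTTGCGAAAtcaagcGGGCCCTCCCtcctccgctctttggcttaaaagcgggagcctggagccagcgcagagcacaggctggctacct

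The Saa3 window held 4 C/EBP matches and no match to the other motifs. The Lcn2 window held 1 C/EBP match, TTGCTCAA on the reverse strand, and 1 NF-kB match, GGACTACCCC. The Ptx3 window held 1 C/EBP match, TTGTGCAA. The Steap4 window held 2 C/EBP, 1 STAT and 3 NF-kB matches, of which 1 C/EBP and 1 NF-kB match overlap in the run TTCCGGAAAACCCC. A promoter was listed for 7 of the 9 members, and 6 of these 7 held a C/EBP match, 5 an NF-kB match and 1, Steap4, a STAT match. Over all 32851 mouse promoters listed, windows of the same length held the motifs in 36.8%, 45.8% and 7.02%, in the order C/EBP, NF-kB and STAT. These shares are per window, whereas Cp had 2 windows and was counted if either held a match. Its NF-kB match was in 1 of them. The motifs are short and common, so a match describes the letters and marks no binding site, and a window without one says nothing about a factor.

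**Figure D1:**
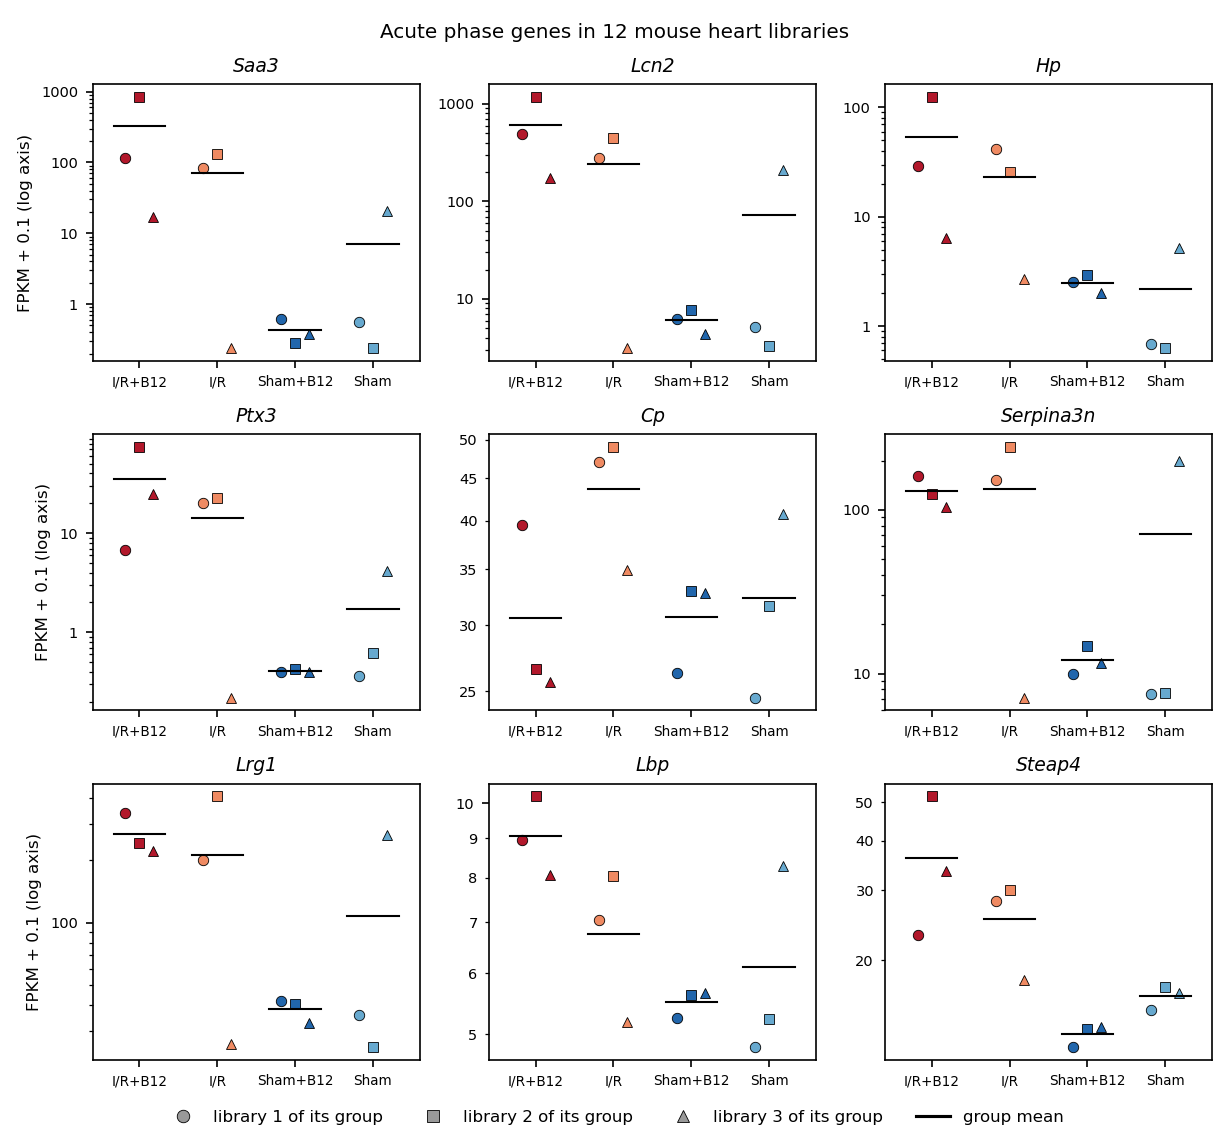
FPKM of the 9 members in each library, on log axes with 0.1 added, for the I/R+B12, I/R, Sham+B12 and Sham groups from left to right, with the marker shape giving the library number and a line the group mean. Saa3, Lcn2, Hp, Ptx3, Serpina3n, Lrg1 and Lbp were high in all 3 I/R+B12 libraries, in I/R 1, I/R 2 and Sham 3, and low in the rest, while Cp moved little and Steap4 separated the I/R libraries from the Sham libraries as labelled.

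The widest range among the members was that of Saa3 (ENSMUSG00000040026, chromosome 7, 46711998 to 46715700, minus strand, mm10), an apolipoprotein of high-density lipoprotein that draws in leukocytes. It had 116, 839 and 17.1 FPKM in the I/R+B12 libraries and 84.4, 132 and 0.14 FPKM in the I/R libraries. In Sham+B12 hearts it had 0.52, 0.18 and 0.28 FPKM, and in Sham hearts 0.46, 0.14 and 20.5 FPKM. Its highest library stood 5994 times above its lowest. Every I/R+B12 library exceeded every Sham+B12 library, whereas the I/R and Sham libraries overlapped. One FPKM of its main transcript stood for 6.98 to 8.12 fragments, so its values under 1 FPKM rest on few fragments.

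Lcn2, lipocalin 2, keeps iron from bacteria by binding their siderophores (ENSMUSG00000026822, chromosome 2, 32384633 to 32388252, minus strand, mm10). Its level was 489, 1176 and 172 FPKM in I/R+B12 hearts and 279, 447 and 3.04 FPKM in I/R hearts, against 6.07, 7.55 and 4.25 FPKM in Sham+B12 hearts and 5.01, 3.2 and 210.5 FPKM in Sham hearts. Ranked by FPKM among all genes of the library, Lcn2 was number 212, 78 and 529 in the I/R+B12 libraries and number 344, 243 and 9693 in the I/R libraries. It was number 6644, 6071 and 8071 in the Sham+B12 libraries and number 7584, 9343 and 406 in the Sham libraries. Of all members Lcn2 took the largest share of the summed member FPKM in I/R+B12 2, at 44.1%.

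Ptx3, the long pentraxin that marks microbes and dying cells for phagocytes (ENSMUSG00000027832, chromosome 3, 66219910 to 66225805, plus strand), was nearly silent in most sham-operated hearts. It had 6.61, 74.4 and 24.7 FPKM in I/R+B12 hearts and 20.0, 22.3 and 0.12 FPKM in I/R hearts. The Sham+B12 libraries had 0.3, 0.33 and 0.3 FPKM and the Sham libraries 0.26, 0.52 and 4.04 FPKM. Unlike Saa3, Lcn2 and Hp, its lowest I/R+B12 library was number 1 and not number 3. Ptx3 lies inside Veph1 on the opposite strand, but the exons do not overlap and Veph1 did not exceed 0.09 FPKM in any library.

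Lbp, the plasma protein that hands bacterial lipopolysaccharide to CD14 (ENSMUSG00000016024, chromosome 2, 158306493 to 158332852, plus strand), was high in the same libraries, within a narrow band. Its levels were 8.85, 10.1 and 7.95 FPKM in I/R+B12 hearts and 6.94, 7.94 and 5.08 FPKM in I/R hearts, against 5.15, 5.52 and 5.56 FPKM in Sham+B12 and 4.71, 5.14 and 8.18 FPKM in Sham hearts. The highest library was 2.15 times the lowest. Lbp was the one member whose I/R+B12 libraries all exceeded the I/R libraries, by a margin of 0.01 FPKM between the nearest 2 libraries.

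Hp, haptoglobin, which captures free haemoglobin (ENSMUSG00000031722, chromosome 8, 109575128 to 109579172, minus strand), had 28.8, 124 and 6.3 FPKM in I/R+B12 hearts and 41.5, 25.5 and 2.6 FPKM in I/R hearts. It had 2.41, 2.83 and 1.92 FPKM in Sham+B12 hearts and 0.58, 0.53 and 5.12 FPKM in Sham hearts. Hp was the one member with a positive difference between Sham+B12 and Sham. All 3 Sham+B12 libraries lay above Sham 1 and Sham 2 and below Sham 3.

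Cp, ceruloplasmin, the copper-carrying ferroxidase (ENSMUSG00000003617, chromosome 3, 19957054 to 20009145, plus strand), did not follow the others. Its levels were 39.5, 26.5 and 25.6 FPKM in I/R+B12 hearts, 47.0, 49.0 and 34.8 FPKM in I/R hearts, 26.2, 32.9 and 32.7 FPKM in Sham+B12 hearts and 24.5, 31.6 and 40.6 FPKM in Sham hearts. The highest library was 2 times the lowest, and the I/R libraries had the highest mean, 43.6 ± 7.67 FPKM (SD, n = 3). Its exons overlap those of Hps3 on the opposite strand, which had 2.19 to 4.53 FPKM. Whether the counting used strand is not stated, so reads of the shared stretch cannot be told apart.

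Steap4, a membrane metalloreductase of iron and copper (ENSMUSG00000012428, chromosome 5, 7960457 to 7982213, plus strand), was the member whose libraries followed the surgery labels in both pairs. It had 23.1, 51.7 and 33.5 FPKM in I/R+B12 hearts and 28.2, 29.9 and 17.8 FPKM in I/R hearts, against 12, 13.3 and 13.5 FPKM in Sham+B12 and 14.9, 17.0 and 16.5 FPKM in Sham hearts. The library labelled I/R 3 was above every Sham library, though by only 0.76 FPKM, and Sham 3 was no higher than Sham 2. All 3 Sham+B12 libraries were below all 3 Sham libraries.

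Serpina3n, a secreted serine protease inhibitor whose targets include granzyme B (ENSMUSG00000021091, chromosome 12, 104406729 to 104414329, plus strand), had 161, 125 and 103 FPKM in I/R+B12 hearts and 152, 243 and 7.04 FPKM in I/R hearts. It had 9.9, 14.5 and 11.5 FPKM in Sham+B12 hearts and 7.36, 7.53 and 198 FPKM in Sham hearts. With the Sham 3 value second among the 12 libraries, the I/R and Sham means were 134 ± 119 and 71.1 ± 110.3 FPKM (SD, n = 3 each). Serpina3n is one of a cluster of closely related genes, and how the authors' quantification split shared reads is not stated.

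Lrg1, leucine-rich alpha-2-glycoprotein, which acts on endothelial TGF-beta signalling (ENSMUSG00000037095, chromosome 17, 56119678 to 56122001, minus strand), had the highest FPKM of all members in 4 of the 6 sham-operated libraries. Its values were 339, 242 and 221 FPKM in I/R+B12 hearts and 202, 407 and 25.9 FPKM in I/R hearts, against 41.6, 40.3 and 32.6 FPKM in Sham+B12 hearts and 35.8, 25 and 263 FPKM in Sham hearts. The 3 I/R+B12 libraries differed less from each other in Lrg1 and Serpina3n than in Saa3, with standard deviations of 62.8, 29.1 and 449 FPKM around means of 267, 130 and 324 FPKM.

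For 7 of the 9 members, all but Cp and Steap4, the same 6 libraries held the 6 highest values: the 3 I/R+B12 libraries, I/R 1, I/R 2 and Sham 3. The orders within those 6 differed. I/R+B12 2 was highest for Saa3, Lcn2, Hp, Ptx3, Lbp and Steap4, whereas I/R 2 was highest for Serpina3n, Lrg1 and Cp. In group means, I/R+B12 stood first for 7 members and I/R first for Cp and Serpina3n. Neighbouring groups in these orders overlapped, except I/R+B12 and I/R for Lbp, and both I/R and Sham and Sham and Sham+B12 for Steap4.

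The summed FPKM of the 9 members was 1211, 2668 and 612 in I/R+B12 hearts and 860, 1363 and 96.5 in I/R hearts. It was 104, 117 and 103 in Sham+B12 hearts and 93.5, 90.6 and 767 in Sham hearts. Lcn2 made up 40.4%, 44.1% and 28.1% of that sum in I/R+B12 hearts and 32.4%, 32.8% and 3.15% in I/R hearts, against 5.83%, 6.43% and 4.14% in Sham+B12 hearts and 5.36%, 3.53% and 27.4% in Sham hearts. Cp made up 0.992% to 4.18% of it in I/R+B12 hearts, against 25.1% to 31.9% in Sham+B12 hearts. The make-up of the sum thus differed between libraries as well as its size.

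**Figure D2:**
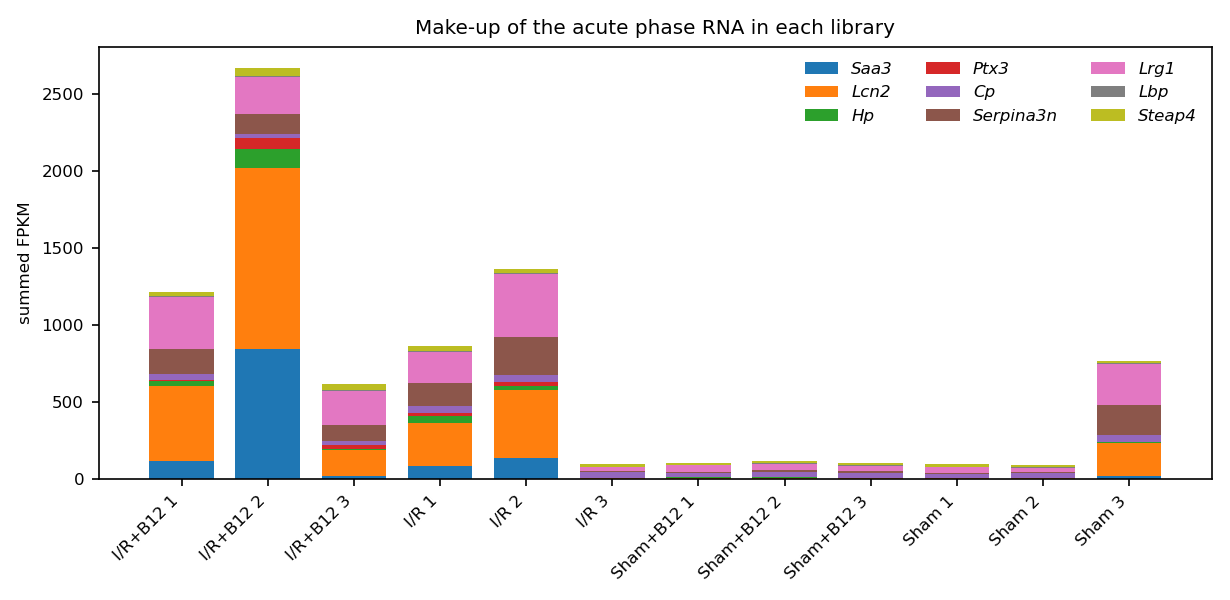
Summed FPKM of the 9 members in each of the 12 libraries as stacked bars, 1 colour per gene, ordered I/R+B12, I/R, Sham+B12 and Sham. The sum was 2668 FPKM in I/R+B12 2, 96.5 FPKM in I/R 3 and 767 FPKM in Sham 3.

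The question of what I/R does under B12 is answered by I/R+B12 against Sham+B12. Differences are of log2(FPKM + 1), which understates changes of low genes, and were tested with limma across 13001 genes with Benjamini-Hochberg adjustment. A gene was called at an adjusted p under 0.05. Higher in I/R+B12 hearts were Saa3 by 6.52 (SE 1.81, adjusted p 0.0446), Lcn2 by 6.09 (SE 1.75, adjusted p 0.0491), Ptx3 by 4.23 (SE 1.10, adjusted p 0.0392) and Steap4 by 1.34 (SE 0.26, adjusted p 0.0231). The other differences were 3.33 for Serpina3n (adjusted p 0.107), 3.16 for Hp (0.0700), 2.76 for Lrg1 (0.0776), 0.63 for Lbp (0.0611) and -0.02 for Cp (0.952), and none of these passed. So 4 of 9 members were called higher, where 6.78% of all tested genes were. The 3 I/R+B12 libraries exceeded the 3 Sham+B12 libraries for 8 of 9 members, all but Cp, against 19.1% of tested genes. The median member difference was 3.16, against -0.02 over all tested genes. Because the members were chosen with earlier results of these data known, these shares describe them and carry no test.

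These calls were close to the threshold, and single libraries moved them. No member was called without I/R+B12 2, or without any 1 of the 3 Sham+B12 libraries, and 1 was called without Sham 1 or Sham 2, that 1 being Steap4. Of all tested genes, 37 of 12911 were called higher without I/R+B12 2 and 24 of 12936 without Sham+B12 2. Without Sham+B12 1 or Sham+B12 3 it was 0. Without Sham 1 or Sham 2 the genes called higher were 602 of 12951 and 566 of 12897. Without I/R 1 or I/R 2 there were 2 member calls, and without I/R+B12 1 or I/R+B12 3 there were 3. Genes called higher in these fits were, in that order, 645 of 12865, 448 of 12884, 1341 of 12906 and 1059 of 12945. Without I/R 3, or without Sham 3, there were 6 member calls, beside 1031 of 12906 and 907 of 12954 genes called higher. Libraries outside the comparison count here because all 12 share 1 estimate of the spread. Without both Sham 3 and I/R 3, the differences stayed as they were and 8 members passed, with adjusted p of 0.000517 for Serpina3n, 0.0036 for Lcn2, 0.00389 for Lrg1, 0.00871 for Ptx3, 0.0101 for Saa3, 0.013 for Steap4, 0.0215 for Lbp and 0.0348 for Hp. Cp had 0.942.

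On normal water, the same surgery gave no call: 0 of 9 members and 0.00% of 13001 tested genes passed in limma, although 1516 genes (11.7%) had an unadjusted p under 0.05. All 9 member differences between I/R and Sham were positive. They were 2.83 for Saa3 (95% interval -1.14 to 6.81), 2.70 for Hp, 2.19 for Lcn2 (-1.65 to 6.03), 1.94 for Ptx3, 1.47 for Serpina3n, 1.05 for Lrg1, 0.59 for Steap4, 0.44 for Cp and 0.14 for Lbp. Of all genes tested, 69.1% had a positive difference and the median was 0.13, so the direction alone does not set the members apart. Unadjusted p were under 0.05 for Hp (0.0249) and Steap4 (0.0442), with adjusted p of 0.408 and 0.423. Steap4 was the one member of 9 whose I/R libraries all exceeded the Sham libraries, against 18.8% of tested genes.

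The count of calls depended on how the libraries labelled Sham 3 and I/R 3 and the spread between libraries were treated. With library weights, a fit that gives libraries far from their group less influence, all 9 members were called higher in I/R against Sham, with 4411 genes called in all. With Sham 3 and I/R 3 left out, and so 2 libraries a side, 55 genes were called. The difference between I/R and Sham was then 6.14 for Lcn2 (adjusted p 0.0188), 4.51 for Serpina3n (0.000205) and 3.22 for Lrg1 (0.0119), and these 3 members were called. Saa3 differed by 6.37 (0.0765), Hp by 4.43 (0.0884), Ptx3 by 4.00 (0.0732), Steap4 by 0.83 (0.209), Cp by 0.77 (0.157) and Lbp by 0.51 (0.178). Leaving out either library alone called no member.

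**Figure D3:**
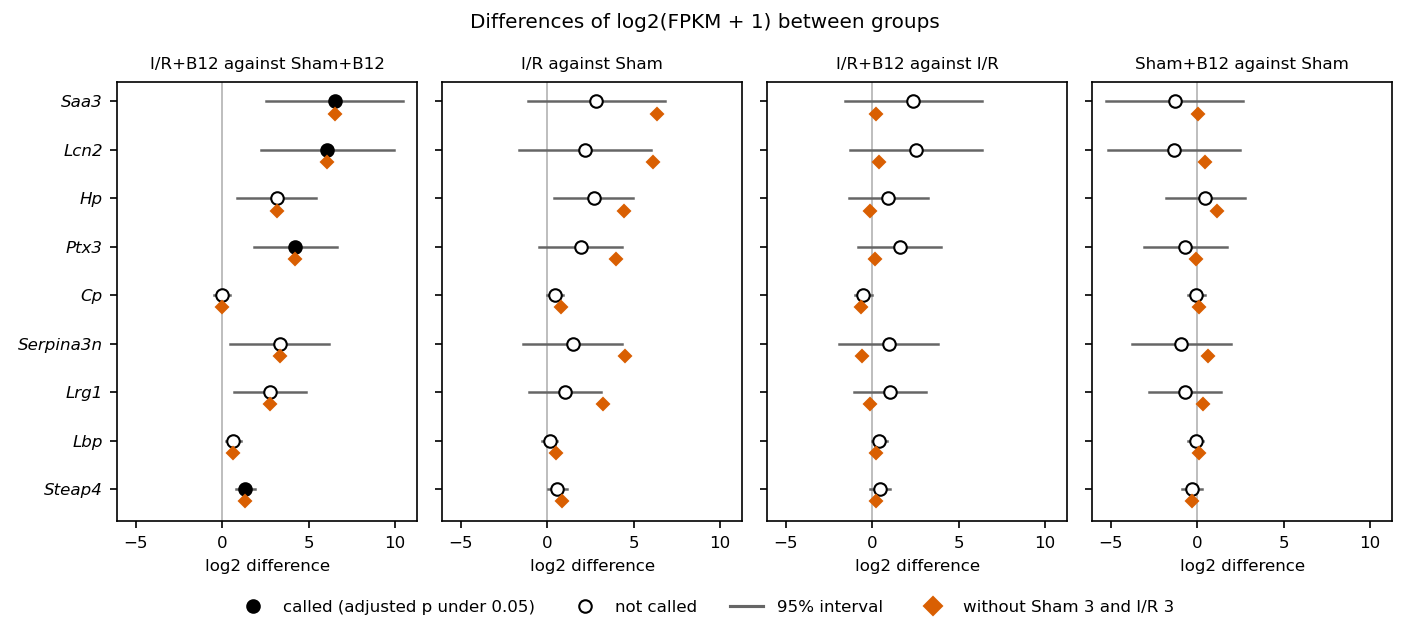
Differences of log2(FPKM + 1) for the 9 members in 4 comparisons, with the 95% interval from limma over 12 libraries (filled circles, called; open circles, not called) and the value without the library pair Sham 3 and I/R 3 (diamonds). Saa3, Lcn2, Ptx3 and Steap4 were called in I/R+B12 against Sham+B12, and without the 2 libraries the difference of Lcn2 in I/R against Sham was 6.14 instead of 2.19.

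Averaged over both kinds of water, the I/R difference was 4.67 for Saa3 (SE 1.28, adjusted p 0.0435), 3.08 for Ptx3 (SE 0.78, adjusted p 0.0356), 2.93 for Hp (SE 0.74, adjusted p 0.0356) and 0.96 for Steap4 (SE 0.18, adjusted p 0.0216), and these 4 of 9 were called higher, against 8.36% of tested genes. Lcn2 differed by 4.14 (adjusted p 0.0549), Serpina3n by 2.40 (0.105), Lrg1 by 1.90 (0.0848), Lbp by 0.39 (0.0917) and Cp by 0.21 (0.387). Single libraries moved this count too, as they moved the count over all tested genes. No member was called without I/R 1, I/R 2, Sham 1, Sham+B12 1 or Sham+B12 3, 1 was called without I/R+B12 2, Sham+B12 2 or Sham 2, and 8 were called without Sham 3, without I/R 3 or without both. Over all tested genes, the fits with no member call had 0 calls, or 2 without I/R 2. In the fits with 1 member call, 523 of 12911 genes were called higher without I/R+B12 2. Without Sham+B12 2 they were 475 of 12936, and without Sham 2 they were 251 of 12897. In the fits with 8 member calls, 1087 of 12954 were called higher without Sham 3, 1705 of 12906 without I/R 3 and 1748 of 12851 without both.

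Whether B12 changes the members in the injured heart is the question of I/R+B12 against I/R. No member and 0.00% of 13001 tested genes were called in limma, although 28.5% of genes had an unadjusted p under 0.05. The differences were 2.54 for Lcn2 (95% interval -1.30 to 6.38), 2.37 for Saa3 (-1.61 to 6.34), 1.58 for Ptx3 (-0.83 to 3.99), 1.02 for Lrg1, 0.94 for Serpina3n, 0.91 for Hp, 0.46 for Steap4 and 0.39 for Lbp, and -0.51 for Cp. Positive differences were thus found in 8 of 9 members, against 28.2% of tested genes. That count fell to 3 of 9 with library weights, which gave -1.10 for Saa3, -0.30 for Lcn2, -0.74 for Hp, -0.83 for Serpina3n and -0.52 for Lrg1 and called Cp lower. Library weights called 561 of the 13001 tested genes higher and 3764 lower. With all libraries weighted equally, Cp had an unadjusted p of 0.0396 and an adjusted p of 0.158 in limma. Lbp was the only member without overlap between these groups, where 4.41% of tested genes did not overlap in that direction. Without the library pair Sham 3 and I/R 3 the differences shrank to 0.39 for Lcn2, 0.19 for Saa3 and 0.15 for Ptx3, and were -0.58 for Serpina3n, -0.16 for Hp and -0.12 for Lrg1. The one setting with 2 member calls left out I/R+B12 1, where Cp passed as lower and Steap4 as higher. In that fit 493 of 12906 tested genes were called higher and 3916 lower.

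In sham-operated hearts, 8 of 9 members had a negative difference between Sham+B12 and Sham, and Hp a positive one of 0.46. The negative ones were -1.36 for Lcn2, -1.32 for Saa3, -0.92 for Serpina3n, -0.70 for Ptx3, -0.70 for Lrg1, -0.30 for Steap4, -0.10 for Lbp and -0.05 for Cp. Of all tested genes 32.1% had a positive difference, so most were negative as well. None of the members was called, nor was any of the 13001 genes in limma (0.00%), and 1.69% had an unadjusted p under 0.05. Steap4 was the one member whose Sham+B12 libraries all lay below the Sham libraries, against 8.98% of tested genes. Its difference was -0.28 without Sham 3 and I/R 3. The directions of Lcn2, Saa3, Serpina3n and Lrg1 came with 1 library: without Sham 3 they were 0.44, 0.03, 0.60 and 0.33.

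The interaction sets the response to I/R after B12 water against the response after normal water, as a difference of 2 differences. No member and 0.00% of the tested genes were called, and 12.3% of genes had an unadjusted p under 0.05. It was positive for 8 of 9 members, all but Cp, where 36.3% of tested genes were positive. Its estimate was 3.90 for Lcn2 (95% interval -1.54 to 9.33), 3.69 for Saa3 (-1.93 to 9.31), 2.28 for Ptx3 (-1.13 to 5.69) and 0.76 for Steap4 (-0.05 to 1.56). Without the library pair Sham 3 and I/R 3 the estimates of these 4 were -0.05, 0.15, 0.23 and 0.52. Hp (-1.27), Serpina3n (-1.19) and Lrg1 (-0.46) then turned negative as well, so that 4 of 9 members were positive. With library weights, Saa3 (-0.53), Hp (-1.50), Serpina3n (-0.81) and Lrg1 (-0.28) were negative, and Cp was called lower. That fit called 321 of 13001 tested genes higher and 1517 lower. A difference in the I/R response of these genes between the kinds of water was therefore not detectable here, and the intervals of Lcn2, Saa3 and Ptx3 span several log2 units around 0.

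The cytokines that induce acute phase genes, and their receptors, were counted from a list of 20 genes, of which 18 were tested. This list and those below were also chosen with earlier results of these data known. In I/R+B12 against Sham+B12, 8 were called higher and 0 lower, with a median difference of 1.12. Of all tested genes 6.78% were called higher and 3.62% lower. Il6, the main inducer of the hepatic response, had 8.68, 74.7 and 7.84 FPKM in I/R+B12 hearts and 11.8, 9.6 and 0 FPKM in I/R hearts. It was listed at 0 in all 3 Sham+B12 libraries and had 0, 0.1 and 1.29 FPKM in Sham hearts. Il1b had 34.8, 126 and 5.57 FPKM in I/R+B12 hearts, 40.0, 33.6 and 1.97 FPKM in I/R hearts, 0.24, 0.17 and 0.15 FPKM in Sham+B12 hearts and 0.23, 1.75 and 4.52 FPKM in Sham hearts. Il1b was called higher by 4.71 (adjusted p 0.0305), Il6 by 4.22 (0.0283) and Osm, oncostatin M, by 1.81 (0.0320). Tnf, with a difference of 1.04, was not called (0.112).

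Receptors of these cytokines were called as well. Il1r2, the decoy receptor of interleukin-1, was higher by 4.63 (adjusted p 0.0277), the oncostatin M receptor Osmr by 1.60 (0.0277), Il1r1 by 1.41 (0.0378), Tnfrsf1a by 1.12 (0.0279) and Il6ra by 0.99 (0.0298). Il6ra had 3.77, 6.07 and 4.04 FPKM in I/R+B12 hearts, against 1.6, 2.15 and 1.64 FPKM in Sham+B12 hearts. Between I/R and Sham, between I/R+B12 and I/R, and between Sham+B12 and Sham, 0 of the 18 genes were called.

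Of 20 transcription factors and feedback regulators, 17 were tested, with 5 called higher in I/R+B12 against Sham+B12, beside 6.78% of all tested genes, and a median difference of 0.62. Socs3, the feedback inhibitor that STAT3 induces, was higher by 4.30 (adjusted p 0.0253), the NF-kB cofactors Nfkbiz by 2.17 (0.0410) and Bcl3 by 2.15 (0.0265), Stat3 itself by 1.23 (0.0394) and the kinase Jak2 by 0.78 (0.0425). The C/EBP genes missed the threshold, Cebpd with 1.31 (0.0620) and Cebpb with 1.29 (0.0734). Stat3 had 59.5 FPKM in I/R 1 and 60.5 FPKM in Sham 3. Socs3 had 25.0 to 179 FPKM in the I/R+B12 libraries and 9.67 FPKM in Sham 3.

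**Figure D4:**
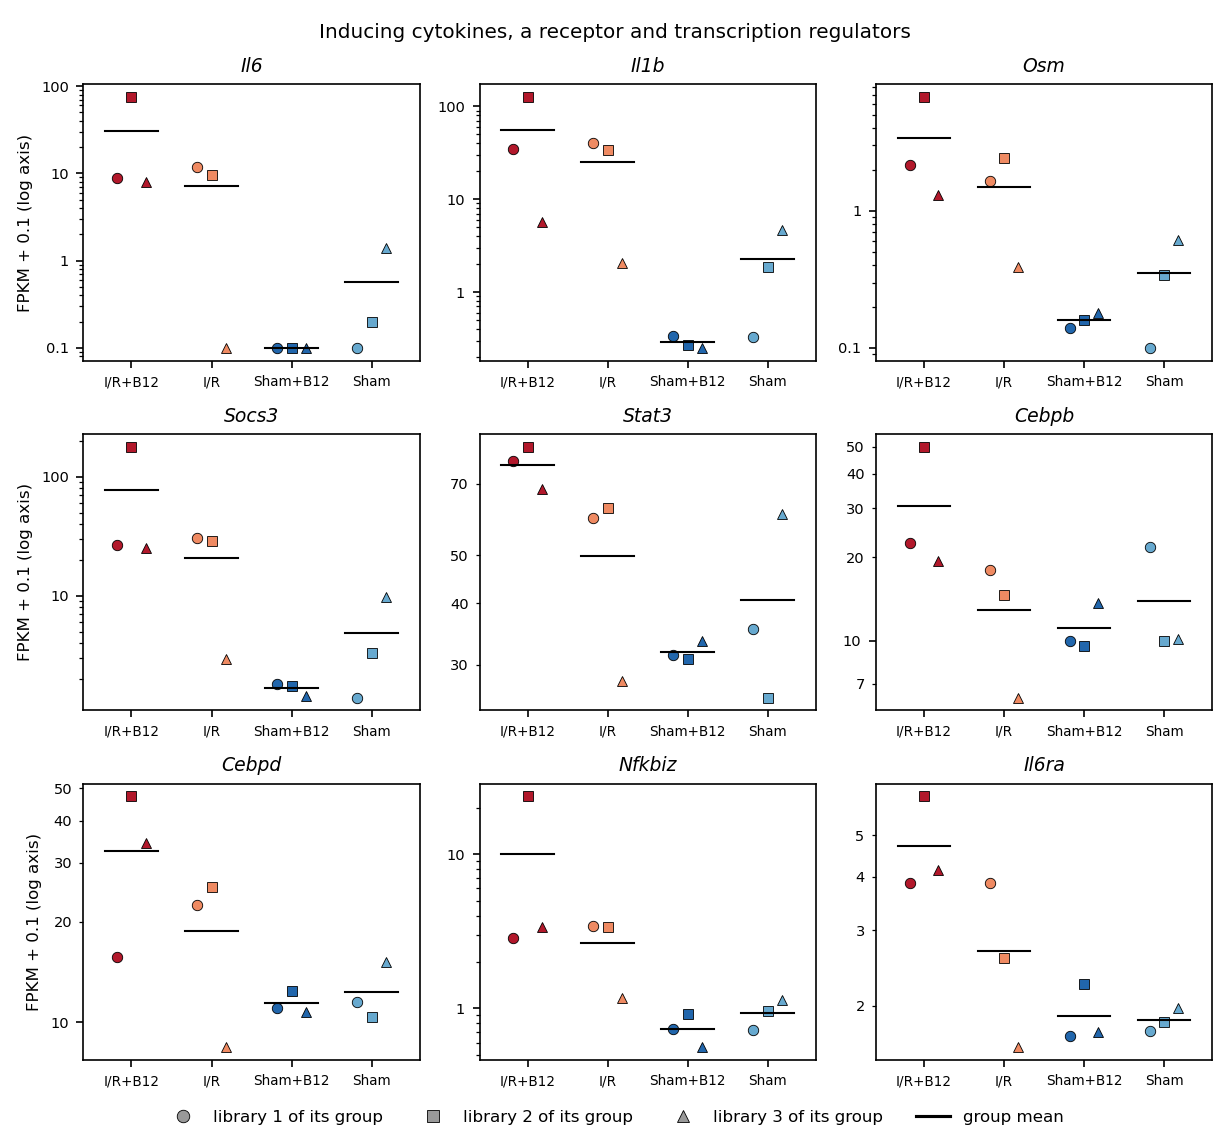
FPKM of Il6, Il1b, Osm, Socs3, Stat3, Cebpb, Cebpd, Nfkbiz and Il6ra in each library, on log axes with 0.1 added, for the I/R+B12, I/R, Sham+B12 and Sham groups from left to right, with the marker shape giving the library number and a line the group mean. Il6 was highest in I/R+B12 2, at 74.7 FPKM, and listed at 0 in I/R 3 and all Sham+B12 libraries.

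Another list held 33 receptors and partners of the 9 proteins, 26 of them tested, with 5 called higher and 0 lower and a median of 0.47, where 6.78% of all tested genes were called higher. Cd14, to which Lbp passes lipopolysaccharide, was higher by 2.72 (adjusted p 0.0337), Tlr4, the receptor that then signals, by 0.95 (0.0451), and Hmox1, the haem-degrading enzyme, by 2.67 (0.0398). The TGF-beta receptors Tgfbr1 (0.79, adjusted p 0.0197) and Tgfbr2 (0.75, 0.0357) were the other calls. Cd14 had 44.7, 196 and 25.0 FPKM in I/R+B12 hearts, against 8.3, 9.26 and 7.67 FPKM in Sham+B12 hearts. Slc22a17, a lipocalin 2 receptor, differed by -0.04 (0.882), Cd163, the haptoglobin-haemoglobin receptor, by -0.29 (0.547) and Ly96, the Tlr4 partner, by -0.12 (0.811). Fpr2, a formyl peptide receptor that also binds serum amyloid A, had 3.22 (0.0784) and Tnfaip6, which binds Ptx3 in hyaluronan matrix, 1.45 (0.0510).

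The other positive acute phase genes did not move as one. Of 42 in the table, 15 passed the filter on low values, and 2 were called higher and 2 lower, with a median of 0.98, beside 6.78% higher and 3.62% lower over all tested genes. The metallothionein Mt1 (2.46, adjusted p 0.0420) and the zinc transporter Slc39a14 (1.30, 0.0487) were higher, and the complement genes C3 (-1.17, 0.0201) and C4b (-1.27, 0.0344) were lower. C3 had 35.4, 29.5 and 32.7 FPKM in I/R+B12 hearts and 81.0, 82.8 and 54.8 FPKM in I/R hearts, against 60.6, 77.2 and 86.8 FPKM in Sham+B12 hearts and 52.5, 62.6 and 39.7 FPKM in Sham hearts. The negative acute phase list had 9 genes in the table, 4 of them tested and 0 called, with a median of -0.33: Ahsg -0.26 (adjusted p 0.499), Ttr -0.40 (0.528), Apoa2 -0.54 (0.638) and Rbp4 -0.15 (0.658).

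Close relatives of the members showed which family genes the heart RNA held. Saa1 and Saa2, the serum amyloid A genes of the liver, did not exceed 3.01 and 2.06 FPKM, both reached in I/R+B12 2, where Saa3 had 839 FPKM. Orm1, the gene of orosomucoid 1, had 16.3 FPKM in I/R+B12 2 and at most 0.53 FPKM in any other library. In the Serpina3 cluster, Serpina3m had 3.14, 2.02 and 1.35 FPKM in I/R+B12 hearts and 2, 3.84 and 0.11 FPKM in I/R hearts, against 0.03, 0.11 and 0.03 FPKM in Sham+B12 hearts and 0.05, 0.03 and 2.73 FPKM in Sham hearts. Serpina3f was different, with 0.3, 6.11 and 7.75 FPKM in I/R+B12 hearts and at most 1 FPKM elsewhere, and was not called (1.86, adjusted p 0.0551). Shared reads between Serpina3n and these copies cannot be told apart here.

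Among 6 tested genes of the STEAP family and other relatives, 0 were called higher and 2 lower in I/R+B12 against Sham+B12, beside 3.62% of all tested genes called lower. Steap3, the ferrireductase of transferrin endosomes, was lower with a difference of -1.05 (adjusted p 0.0397), having 11.3, 4.29 and 8 FPKM in I/R+B12 hearts against 16.2, 15.3 and 17.6 FPKM in Sham+B12 hearts. Pltp, a lipid transfer protein related to Lbp, differed by -1.19 (adjusted p 0.0265). Nptxr, a neuronal pentraxin receptor (0.38, adjusted p 0.143), Steap1 (0.75, 0.247) and Steap2 (0.29, 0.538) were not called. Steap4 was thus the STEAP gene called higher, and Steap3 the one called lower, in the same libraries.

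**Figure D5:**
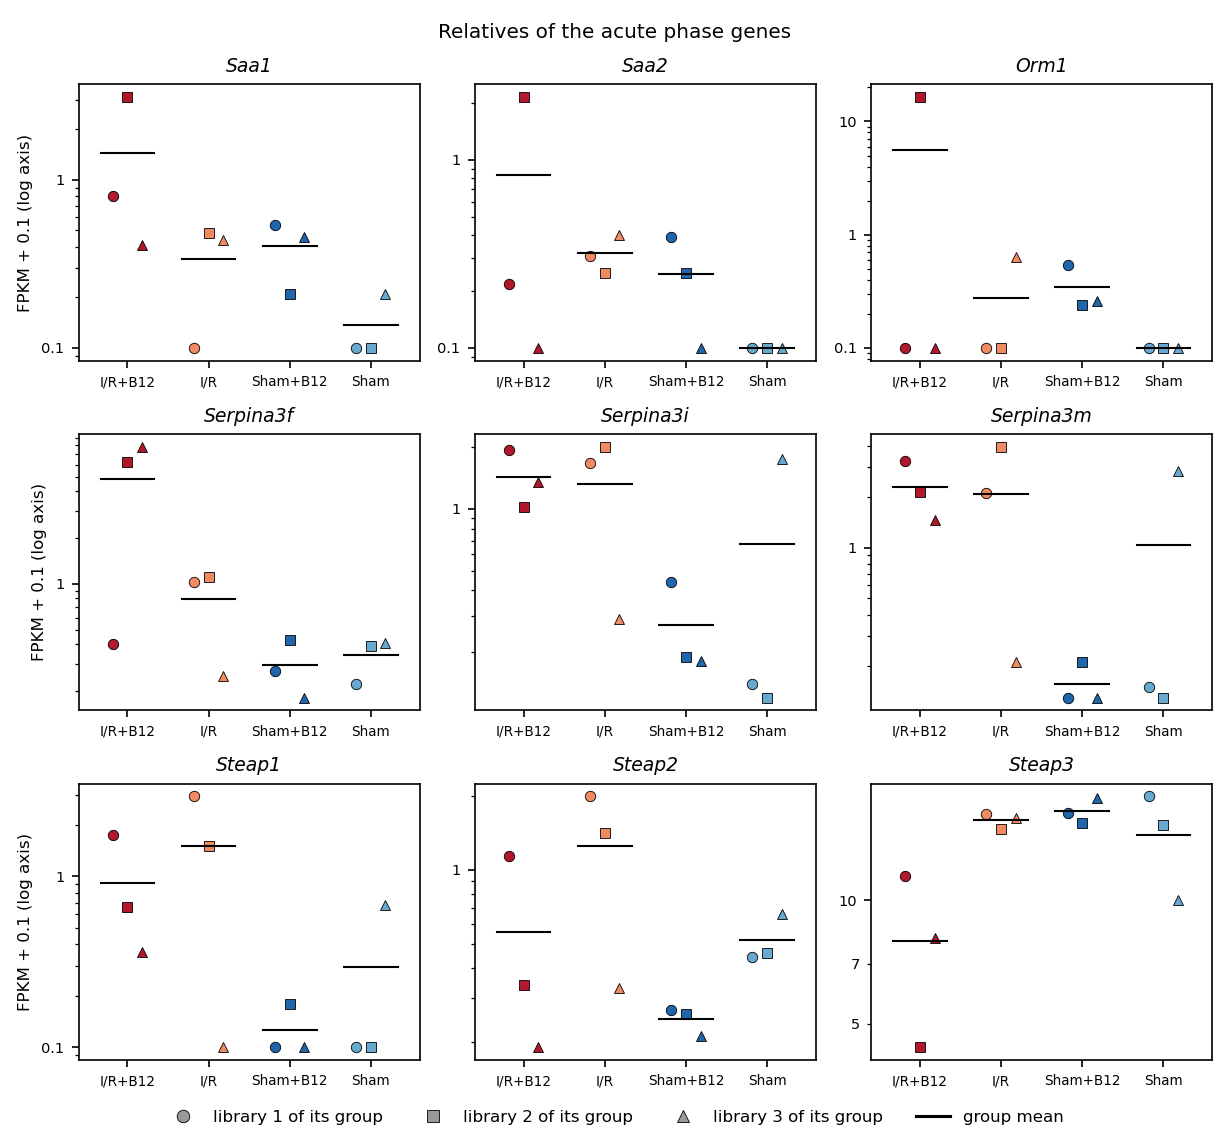
FPKM of Saa1, Saa2, Orm1, Serpina3f, Serpina3i, Serpina3m, Steap1, Steap2 and Steap3 in each library, on log axes with 0.1 added, for the I/R+B12, I/R, Sham+B12 and Sham groups from left to right, with the marker shape giving the library number and a line the group mean. Saa1 and Saa2 did not exceed 3.01 and 2.06 FPKM, and Steap3 was lowest in I/R+B12 2, at 4.29 FPKM.

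Markers of other cell types moved with some of these values. The 12 neutrophil markers summed to 718, 2048 and 99.0 FPKM in I/R+B12 hearts and 1227, 1189 and 16.4 FPKM in I/R hearts. They summed to 0.69, 35.0 and 5.79 FPKM in Sham+B12 hearts and 6.55, 11.6 and 65.4 FPKM in Sham hearts. Of the 12, 7 passed the filter and 2 were called higher in I/R+B12 against Sham+B12, with a median of 3.01, beside 6.78% of all tested genes. The calls were S100a9 (6.03, adjusted p 0.0485) and Retnlg (5.13, 0.0421). In I/R+B12 2, S100a8 and S100a9 had 528 and 1139 of the 2048 FPKM. Ly6g, which did not pass the filter, had 0.18, 0.58 and 0.11 FPKM in I/R+B12 hearts and 3.9, 2.17 and 0 FPKM in I/R hearts. Its levels were 0, 0.46 and 0 FPKM in Sham+B12 hearts and 0, 0 and 0.91 FPKM in Sham hearts. The granule enzymes Mpo and Elane, made in early precursors, did not exceed 0.11 and 0.1 FPKM. On the same list, Ngp had 82.6 FPKM in I/R+B12 2 and at most 2.74 FPKM in any other library. Camp was highest in I/R+B12 2, at 3.03 FPKM, and Ltf in Sham 3, at 2.35 FPKM. The 6 highest sums were those of the 3 I/R+B12 libraries, I/R 1, I/R 2 and Sham 3, as for 7 members, and their part in the results was not tested. Among these 6 libraries, I/R+B12 3 and Sham 3 had the lowest neutrophil sums and the lowest levels of Saa3, Lcn2 and Hp. Lcn2 had 172 FPKM in I/R+B12 3 and 210 FPKM in Sham 3, and 279 to 1176 FPKM in the other 4. Saa3 had 17.1 FPKM in I/R+B12 3 and 20.5 FPKM in Sham 3, and 84.4 to 839 FPKM in the other 4, and Hp had 6.3 and 5.12 FPKM there and 25.5 to 124 FPKM in the other 4. Ptx3, Serpina3n, Lrg1 and Lbp did not have that order. Ptx3 had 24.7 FPKM in I/R+B12 3 and 6.61 FPKM in I/R+B12 1. For Lrg1, I/R+B12 3 had a neutrophil sum of 99.0 FPKM beside 221 FPKM of Lrg1, whereas I/R 1 had 1227 FPKM beside 202 FPKM and Sham 3 had 65.4 FPKM beside 263 FPKM.

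Markers of monocytes and inflammatory macrophages, 12 genes, summed to 37.5 to 409 FPKM in I/R+B12, 60.5 to 623 FPKM in I/R, 36.2 to 53.6 FPKM in Sham+B12 and 45.8 to 122 FPKM in Sham hearts, and 1 of 12, Trem1 (2.73, adjusted p 0.0493), was called higher in I/R+B12 against Sham+B12, a share near the 6.78% of all tested genes. The 10 hepatocyte markers summed to 7.74 to 9.06 FPKM in I/R+B12 hearts, 7.12 to 45.0 FPKM in I/R hearts, 10.8 to 32.0 FPKM in Sham+B12 hearts and 6.96 to 11.4 FPKM in Sham hearts. Albumin, Alb, was at 12.6 FPKM in I/R 3 and 7.38 FPKM in Sham+B12 1 and at most 0.71 FPKM elsewhere. Those 2 libraries had 0.14 and 0.52 FPKM of Saa3, 3.04 and 6.07 FPKM of Lcn2 and 2.6 and 2.41 FPKM of Hp. In Sham 1 and Sham 2, Hp had 0.58 and 0.53 FPKM beside 0 and 0.11 FPKM of Alb. In Sham+B12 2 and Sham+B12 3, Hp had 2.83 and 1.92 FPKM beside 0.23 and 0.71 FPKM of Alb. Of further acute phase genes of the liver, Crp, Apcs, Fga, Fgb, Fgg and Orm2 stayed under 1 FPKM in every library. Serpina1e (4.16 FPKM), Serpina1b (2.21 FPKM) and Hpx (1.4 FPKM) had their highest level in I/R 3. Orm1, Saa1 and Saa2, as given above, had theirs in I/R+B12 2, where 6 of the 9 members were highest. The part of liver RNA in the results was not tested. Atrial markers, 7 genes with Nppa among them, summed to 245 to 385 FPKM in I/R+B12 hearts, 195 to 728 FPKM in I/R hearts, 244 to 257 FPKM in Sham+B12 hearts and 337 to 3176 FPKM in Sham hearts, the highest being Sham 3. Nppa alone had 3157 FPKM in Sham 3. Myl7, Myl4 and Dkk3, atrial markers as well, had 0, 3.41 and 0.76 FPKM in Sham 3. They were highest in Sham+B12 3, at 4.43, 13.8 and 4.23 FPKM. Sln, another atrial marker, was at 0 in Sham 3 and at most 0.12 FPKM in any library.

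Further marker lists also held calls in I/R+B12 against Sham+B12. Of 10 endothelial markers, 2 were called higher, the adhesion gene Pecam1 (0.63, adjusted p 0.0259) and the tight junction gene Cldn5 (1.35, 0.0265), with a median of 0.05 over the list. Of all tested genes 6.78% were called higher and 3.62% lower. On the endothelial list 4 of the 10 differences were negative and not called: Tek -0.48 (adjusted p 0.287), Vwf -0.44 (0.0731), Kdr -0.30 (0.298) and Tie1 -0.18 (0.488). The groups did not overlap for 3 markers that were higher and for 1, Vwf, that was lower, beside 19.1% and 13.2% of all tested genes. The endothelial list summed to 1375 to 2258 FPKM in I/R+B12, 1551 to 1652 FPKM in I/R, 1131 to 1715 FPKM in Sham+B12 and 1323 to 1493 FPKM in Sham hearts. Wt1, a transcription factor of the epicardium, was called higher (1.28, adjusted p 0.0197). It was 1 of 2 tested among 10 mesothelial markers, whose sum was at most 11.6 FPKM in any library. The other tested marker, Gpm6a, went the other way (-0.74, adjusted p 0.0895) and was not called. For neither marker did the groups overlap. Of 10 resident macrophage markers 9 had a negative difference, with a median of -0.81, and 1 was called lower, the folate receptor gene Folr2 (-1.16, adjusted p 0.0471). That list summed to 176 to 412 FPKM in I/R+B12, 443 to 569 FPKM in I/R, 354 to 473 FPKM in Sham+B12 and 286 to 495 FPKM in Sham hearts. The fibroblast, adipocyte, hepatocyte, atrial and ventricular lists held no call. Unadjusted p were under 0.05 in limma for 5 of the 10 fibroblast markers and 1 of the 10 ventricular markers, beside 32.3% of all tested genes. The part of these cell types in the members' values was not tested.

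The genes most like each member were found by the mean difference in rank over the 12 libraries, where 0 means the same order. Between members, Saa3 and Lcn2 were nearest at 0.75, and Cp was 2.17 to 3.5 from every other member. Nearest to Lcn2 were Dnah7a and Ccdc171 at 0.33 and Il1r2 at 0.67, and nearest to Saa3 were Utp4 (0.58), Slc2a1 (0.67) and Myc (0.75). Hp lay nearest to Ddx21 (0.5), Cxcr2 (0.58) and Rai14 (0.58), and Ptx3 to Slc7a15 (0.58), Cebpd (0.75) and Dis3 (0.75). Steap4 had 3 genes at 0.33, namely Slc30a4, Ptar1 and Zzz3. For Lrg1 the nearest were Serpina3i (0.83), Serpina3m and Ampd3 (both 1), for Serpina3n Tmem38b, Tbce and Bnip3 (all 1), for Lbp Uhrf1bp1l (0.83), Plpp1 and Dcun1d3 (both 1), and for Cp Mphosph9 (0.67), Cul5 and Atp2b1 (both 0.83). The median distance of a member to all tested genes was 3.17 to 4. These distances are descriptions over libraries that share their groups, and carry no test.

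Dnah7a, an axonemal dynein gene, shows how close such a likeness can be. It had 5.93, 5.87 and 3.82 FPKM in I/R+B12 hearts and 4.41, 4.76 and 0.77 FPKM in I/R hearts, against 1.02, 1.28 and 0.89 FPKM in Sham+B12 hearts and 0.96, 0.82 and 3.71 FPKM in Sham hearts. Its libraries thus stood in nearly the order of Lcn2, with Sham 3 among the high ones and I/R 3 the lowest, over a much smaller range. Slc30a4, a zinc transporter, had 3.94, 7.7 and 5.73 FPKM in I/R+B12 hearts and 4.41, 3.97 and 3.64 FPKM in I/R hearts, against 1.74, 2.37 and 2 FPKM in Sham+B12 hearts and 2.41, 2.79 and 2.52 FPKM in Sham hearts. Like Steap4, it had no overlap between the libraries of I/R and Sham as labelled.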

How the data were processed

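Per the labels' protocols, poly(A) RNA of mouse hearts was sequenced in paired ends. The authors deposited 1 table of FPKM per gene and library. HISAT2, StringTie and mm10 are named per the submitters' processing notes. Versions, annotation and strand setting are not given in the sources used here. Values were analysed as log2(FPKM + 1), keeping genes with 1 FPKM in at least 3 libraries (13001 genes, all 9 members). All 12 libraries entered 1 fit (limma 3.58.1, R 4.3.3, variance trend, two-sided tests), with p-values adjusted by Benjamini-Hochberg within each of 6 contrasts. Simulated data with 13001 genes were used to test it. In I/R+B12 against Sham+B12, 54% of changes of 1 and 92% of changes of 2 on the log2 scale were recovered. The false share of the calls was 6.41%. For the interaction these values were 27%, 77% and 3.7%. Standard errors of the members in I/R+B12 against Sham+B12 ran from 0.20 for Lbp to 1.81 for Saa3. Recovery at the members' own spread was not tested.

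The members and gene lists were chosen with earlier results of these data known. Named genes were the members, the 3 nearest tested genes of each, the 3 genes of each list with the smallest p in I/R+B12 against Sham+B12, and a set of known inducers and partners. Dnah7a and Slc30a4 are shown in full, and Orm1, Serpina3f, Serpina3m, Steap1, Steap2, S100a8, Ly6g and the remaining called list genes named, after their values were seen. One result of the transcription factor list is not reported here. Depth was estimated from transcripts of 600 to 1200 nt, on which 83.4% to 89.0% of low values fell within 0.15 of a whole number of fragments (30% if unspaced). Depth covers counting error only. Gene positions come from GENCODE M21 on mm10, in which 55227 IDs were found, and promoters from RefSeq. Alternatives were pseudocounts of 0.1 and 0.5, no filter, a filter at 5 FPKM, 2 other scalings, the compared groups alone, no trend, a robust trend, a replicate block, library weights, each library left out, and both Sham 3 and I/R 3 left out. Figures were drawn with matplotlib 3.10.9.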

Additional observations from a re-analysis of the deposited data

How the results depend on the processing

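Depth limits the low values of Saa3, whose levels under 1 FPKM rest on few fragments, and the spread between 3 libraries a group limits the tests. The number of members called in I/R+B12 against Sham+B12 was 4, and became 0 with no filter, 2 with a robust trend, 8 without the library pair Sham 3 and I/R 3, and 0 to 6 with each library left out. In I/R against Sham it was 0, and became 9 with library weights and 3 without those libraries (0 to 0 with each left out). In I/R+B12 against I/R it was 0, and became 1 (Cp) with library weights and 0 to 2 with each library left out. In the interaction library weights called 1 (Cp), and leaving out each library called 0. In the mean I/R difference it was 4, and became 1 with no filter, 8 with library weights, 8 without those libraries and 0 to 8 with each left out. In Sham+B12 against Sham it stayed 0 in every fit run. Over all genes, the 1352 calls in I/R+B12 against Sham+B12 became 262 with no filter, 1370 with a robust trend and 241 with the compared groups alone. They became 3082 with library weights, 1666 without both Sham 3 and I/R 3 and 0 to 3833 with each library left out. In I/R against Sham 4411 genes were called with library weights and 55 without both libraries. In I/R+B12 against I/R 4325 genes were called with library weights and up to 4409 with each library left out. Library weights called 1838 genes in the interaction and 4736 in the mean I/R difference. The 1309 calls in the mean I/R difference became 274 with no filter, 2320 without both libraries and 0 to 2701 with each left out. The cause of these changes was not tested.

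The replicate numbers did not pair libraries: the mean correlation of same-number libraries was 0.0144 over 18 pairs (-0.412 to 0.391), and that of other pairs -0.00868. With a replicate block, 1 member, Steap4, was called in I/R+B12 against Sham+B12 and 3 (Hp, Ptx3, Steap4) in the mean I/R difference. Of the 13001 tested genes, 656 and 1030 were called higher in these fits, in that order.

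Signs that turned were mostly of differences near 0 or of comparisons that use Sham 3 or I/R 3. Cp in I/R+B12 against Sham+B12 was 0.00082 with median-ratio scaling. Lbp in I/R against Sham was -0.00012 with that scaling and -0.052 with quantile normalization, and Cp in Sham+B12 against Sham 0.026 and 0.010. Library weights gave, in I/R+B12 against I/R, -1.10 for Saa3, -0.30 for Lcn2, -0.74 for Hp, -0.83 for Serpina3n and -0.52 for Lrg1. They gave, in Sham+B12 against Sham, 0.15 for Cp and 0.060 for Lbp, and in the interaction -0.53 for Saa3, -1.50 for Hp, -0.81 for Serpina3n and -0.28 for Lrg1. Without both libraries, I/R+B12 against I/R gave -0.16 for Hp, -0.58 for Serpina3n and -0.12 for Lrg1. Sham+B12 against Sham gave 0.032 for Saa3, 0.44 for Lcn2, 0.13 for Cp, 0.60 for Serpina3n, 0.33 for Lrg1 and 0.11 for Lbp, and the interaction -0.053 for Lcn2, -1.27 for Hp, -1.19 for Serpina3n and -0.46 for Lrg1. With each library left out, Cp in I/R+B12 against Sham+B12 ranged from -0.22 to 0.085. In I/R+B12 against I/R, Hp ranged from -0.16 to 1.94, Serpina3n from -0.58 to 1.88 and Lrg1 from -0.12 to 1.84. In Sham+B12 against Sham, Saa3 ranged from -2.09 to 0.032, Lcn2 from -2.39 to 0.44, Cp from -0.23 to 0.13, Serpina3n from -1.68 to 0.60, Lrg1 from -1.34 to 0.33 and Lbp from -0.23 to 0.11. Hp in the interaction ranged from -0.61 to 1.48.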
